A study of Mus musculus with 6 samples.

Results

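The betaine and GABA transporter gene Slc6a12 was examined together with 8 other genes of osmolyte transport, synthesis and tonicity control in J774A.1 mouse macrophages. Slc6a12 was selected on its p-value, the smallest of all genes in the comparison of neuropeptide FF (NPFF) with control, so its values in that comparison are a description and carry no test. The other 8 genes, Slc6a13, Slc6a6, Slc6a8, Slc6a9, Slc5a3, Slc38a2, Akr1b3 and Nfat5, were chosen for their known roles. Earlier results of these data were known when they were chosen. A gene was counted where the array annotation paired a feature with its symbol alone, and 6 of the 9 genes had such a feature, among 22180 genes in all. Each of the 6 had 1 feature. Slc6a9 and Slc5a3 lay on features paired with a second gene, and no feature was matched to Akr1b3, which was not analysed here.

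J774A.1 is a macrophage-like line of BALB/c origin. Cells of the NPFF group received the amidated neuropeptide at 1 nM in phosphate-buffered saline (PBS) for 18 h, and control cells received the PBS vehicle for 18 h. Both groups were grown in RPMI-1640 with 10% fetal calf serum, and the labels name no change in the osmolality of the medium for either. Each group had 3 arrays, called biological replicates in the titles. Whether these were grown as separate cultures is not stated in the labels, and p-values then reflect only how far these arrays differ, which may be technical. The control titles read non-treated while their treatment label reads vehicle.

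Cells in hypertonic surroundings accumulate small organic molecules, the osmolytes betaine, taurine, myo-inositol, sorbitol and others, which balance the outside without disturbing proteins as salt does. NFAT5, also called TonEBP, is the transcription factor best known for switching on the carriers and enzymes of this response, and it binds a DNA element named the tonicity-responsive enhancer (TonE). The response is best studied in the kidney medulla, and mouse macrophage lines are known to take up betaine and taurine as osmolytes.

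Promoters in RefSeq's mouse table (GRCm38.p6) were searched for the TonE consensus, an element of 11 bases that starts with TGGAAA, in the 250 bases before each start site and on both strands. The table held windows for 6 of the 9 genes. A match was present in 1 of 5 windows of Slc6a12 and 1 of 3 windows of Slc6a13, and in 0 of the windows of Slc6a9 (3), Slc5a3 (1), Slc38a2 (1) and Nfat5 (1). Of all 32851 windows in the table, 4.31% held the consensus and 18.6% held its core TGGAAA. Every consensus match holds the core by definition, and the core occurred in no other window of these genes. Slc6a12 and Slc6a13 are neighbours with different values on these arrays. The 2 windows are shown because they were the only ones of these genes with a consensus match, which capitals mark.
Slc6a12, start site 1 in genome order, chr6:121342324-121342573, plus strand: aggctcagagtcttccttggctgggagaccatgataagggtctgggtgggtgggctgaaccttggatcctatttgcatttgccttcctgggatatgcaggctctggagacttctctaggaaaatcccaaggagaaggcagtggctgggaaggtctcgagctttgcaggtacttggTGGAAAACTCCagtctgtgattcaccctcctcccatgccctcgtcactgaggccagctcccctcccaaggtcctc
Slc6a13, start site 3 in genome order, chr6:121303389-121303638, plus strand: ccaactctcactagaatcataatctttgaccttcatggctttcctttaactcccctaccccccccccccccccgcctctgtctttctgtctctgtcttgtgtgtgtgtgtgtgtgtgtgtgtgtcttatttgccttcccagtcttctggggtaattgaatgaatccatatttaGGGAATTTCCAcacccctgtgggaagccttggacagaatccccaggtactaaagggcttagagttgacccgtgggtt
The match of Slc6a12 lay 75 to 65 bases before the start on the printed strand. That of Slc6a13 lay 77 to 67 bases before the start on the opposite strand. A match is a description of these letters, and binding was not measured.

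Values are log2 intensities after quantile normalization, and differences are NPFF minus control on the log2 scale. The level of a transcript in a culture cannot tell fewer expressing cells from less RNA per cell. Slc6a12 (feature 17462472) encodes BGT1, which carries betaine and GABA into cells with sodium and chloride and is a known target of NFAT5 in kidney cells. It stood at 11.31, 11.20 and 11.48 on the NPFF arrays, and at 10.38, 10.45 and 10.58 on the control arrays. All 3 NPFF arrays were high and the lowest of them lay 0.62 above the highest control. The mean was 11.33 ± 0.14 (SD, n = 3) with NPFF and 10.47 ± 0.10 (SD, n = 3) in control, a difference of 0.86 with a standard error (SE) of 0.10, or 1.82-fold. Against controls 1, 2 and 3 taken singly, the NPFF mean was higher by 0.95, 0.87 and 0.75. With single arrays left out, the difference lay between 0.78 and 0.93, and by size it was the 5th largest of the 22180 genes.

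Limma was fitted over all genes with Benjamini-Hochberg adjustment. It called 0 of 22180 genes at an adjusted p under 0.05, a share of 0%, and 556 genes, 2.51%, had an unadjusted p under 0.05. Without moderation 0 passed after adjustment and 724 had an unadjusted p under 0.05. The groups' values were apart, without overlap, in 8.58% of genes, with NPFF higher in 3.67% and lower in 4.92%; by sign alone 51.7% of genes were higher and 48.3% lower. Of the 5 other osmolyte genes with a feature of their own, 0 were called, 0 had an unadjusted p under 0.05 and 0 had groups that did not overlap, against those shares of all genes. The 2 shared features, described below, were not in these counts. Both had an unadjusted limma p under 0.05 in the fit over all features, and groups without overlap. By sign 4 of the 5 were higher and 1 was lower, and their median difference was 0.07, against 0.00 over all genes. The count without overlap was 3 without control 1, where it held for 27.3% of all genes, 2 without control 2, against 19.3%, and 1 without NPFF 1, against 13.7%.

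**Figure D1:**
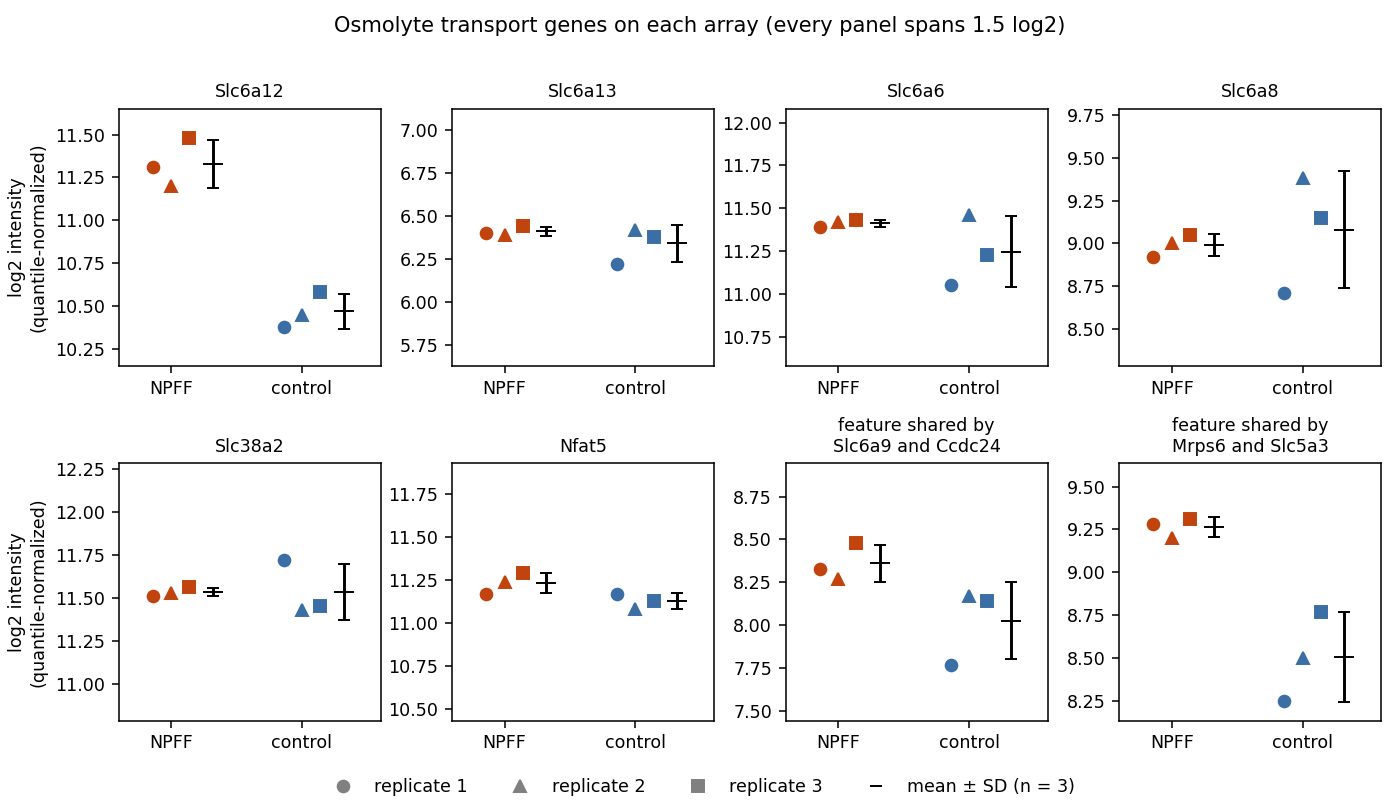
Log2 intensity (vertical axes, each spanning the same distance) on the 3 NPFF arrays and the 3 control arrays, for the 6 genes with a feature of their own and for the 2 features shared with a second gene. Points are arrays and bars are the mean ± SD (n = 3). The groups lie apart for Slc6a12, with NPFF between 11.20 and 11.48 and control between 10.38 and 10.58, and for both shared features, and they overlap in the other 5 panels.

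Slc6a13 encodes GAT2, a GABA and taurine carrier and lies next to Slc6a12 in the genome. It stood at 6.40, 6.39 and 6.44 with NPFF, and at 6.22, 6.42 and 6.38 in control. The groups overlapped, and control 1 was the low array. The difference was 0.07 (SE 0.07, 95% interval -0.11 to 0.25, limma adjusted p = 1.00). It was 0.01 without control 1 and 0.11 without control 2. Its mean signal lay at percentile 46.6 of all genes, whereas the other osmolyte genes with a feature of their own lay at 85.7 or above; this describes the brightness of the features and not the relative abundance of the transcripts.

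Slc6a6 encodes the taurine transporter, another carrier known to rise under NFAT5. It stood at 11.39, 11.42 and 11.43 with NPFF, and at 11.05, 11.46 and 11.23 in control. The NPFF arrays were close together, and control 2 lay above all of them. The difference was 0.17 (SE 0.11, 95% interval -0.09 to 0.43, adjusted p = 1.00). It was 0.07 without control 1 and 0.28 without control 2.

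Slc6a8, the creatine transporter, stood at 8.92, 9.0 and 9.05 with NPFF, and at 8.71, 9.38 and 9.15 in control. The NPFF arrays fell between control 1 and the other controls. The difference was -0.09 (SE 0.17, 95% interval -0.49 to 0.31, adjusted p = 1.00). It was -0.28 without control 1 and turned to 0.06 without control 2. The SD was 0.07 in the NPFF group and 0.34 in control, the widest of the 6 genes.

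Slc38a2 encodes SNAT2, a carrier of small neutral amino acids that responds to both hypertonicity and amino acid shortage. It stood at 11.51, 11.53 and 11.56 with NPFF, and at 11.72, 11.43 and 11.45 in control. Control 1 was above and controls 2 and 3 below every NPFF array. The difference was 0.00 (SE 0.09, 95% interval -0.22 to 0.22, adjusted p = 1.00), with a range of -0.05 to 0.09 as single arrays were left out. Control 1 was thus the lowest array for Slc6a6, Slc6a8 and Slc6a13 and the highest for Slc38a2.

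Nfat5 itself (feature 17505260) stood at 11.17, 11.24 and 11.29 with NPFF, and at 11.17, 11.08 and 11.13 in control. In 2 of the 3 NPFF arrays it lay above every control, and the remaining NPFF array and control 1 had the same rounded value. The difference was 0.10 (SE 0.06, 95% interval -0.05 to 0.26, adjusted p = 1.00), with a range of 0.08 to 0.14 as single arrays were left out. NFAT5 is controlled in large part after transcription, through its translation, its entry into the nucleus and its activity, which arrays do not measure.

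The feature paired with both Mrps6, a mitochondrial ribosomal protein gene, and Slc5a3, the myo-inositol carrier gene, cannot be assigned to either gene (feature 17327201). It read 9.28, 9.20 and 9.31 on the NPFF arrays, and 8.25, 8.50 and 8.77 on the control arrays. The groups did not overlap, with a gap of 0.43 between the lowest NPFF array and the highest control. Its difference was 0.76 (SE 0.13, limma unadjusted p = 0.00144, adjusted p = 1.00 over all 33794 features). No feature had a lower rounded adjusted p in that fit. The difference was 0.49 against control 3 alone and 0.63 without control 1. Slc5a3 is known to lie within the Mrps6 locus, and myo-inositol uptake through it rises under hypertonicity in many cells. Which of the transcripts the probes read on these arrays was not tested.

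The feature paired with both Slc6a9, the glycine transporter GlyT1, and Ccdc24 (feature 17417702) read 8.33, 8.27 and 8.48 with NPFF, and 7.77, 8.17 and 8.14 in control. The groups did not overlap, by 0.09. The difference was 0.33 (SE 0.13, limma unadjusted p = 0.0435, adjusted p = 1.00 in the same fit over all features), and it was 0.20 without control 1. These 2 features are given as read, since neither counts for a single gene.

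The genes next to Slc6a12 on chromosome 6 were compared with it, from RefSeq's order of genes. Beyond Slc6a13 lies Usp18, whose protease removes ISG15 from proteins, and on the other side lie Iqsec3 and the protease inhibitor gene A2m. Usp18 had a difference of 0.14 (SE 0.13), Iqsec3 0.04 (SE 0.10) and A2m 0.11 (SE 0.10), each with an adjusted p = 1.00 by limma and with overlapping groups. Usp18 differed by 0.00 without control 1 and by -0.03 against control 3 alone. Iqsec3 differed by -0.04 without control 1. A2m lay between 0.05 and 0.18 as single arrays were left out. The remaining 2 neighbours, Gm44148 and Gm43945, were not analysed here.

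**Figure D2:**
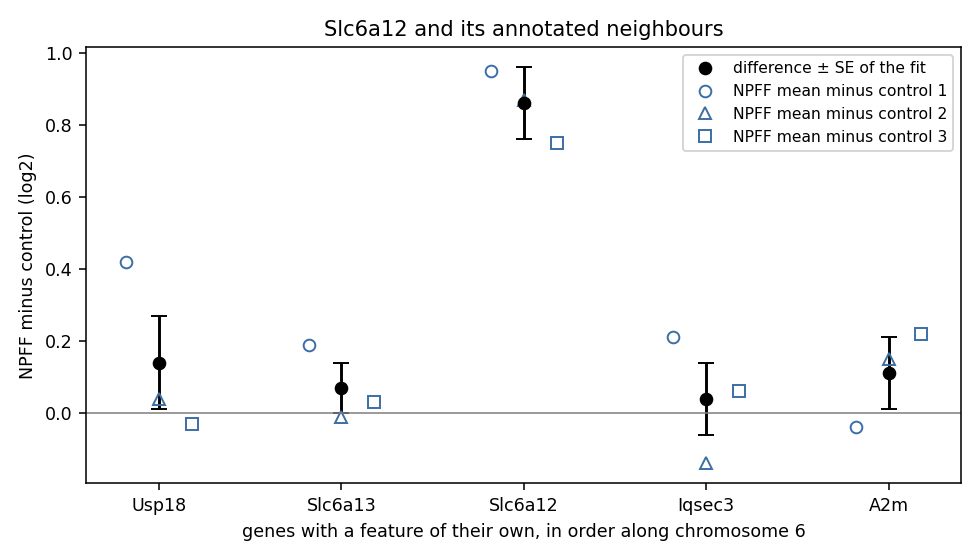
Difference between NPFF and control (log2, vertical axis) for Slc6a12 and the neighbours with a feature of their own, in their order along chromosome 6. Filled points are the difference with its SE, and open symbols are the NPFF mean minus each control. Slc6a12 lies at 0.75 to 0.95 above the single controls, and its 4 neighbours at -0.14 to 0.42.

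Among 4222 genes whose arrays spanned at least 0.5 log2, predicted and unnamed classes of symbols left out, the 5 most like Slc6a12 by Pearson's r over the 6 arrays were Htr1b at 0.986, Itga4 at 0.975, Car2 at 0.973, Tmem38b at 0.967 and Agmo at 0.964. In total 11 of these genes had an r over 0.9. Likeness to a gene chosen for its group difference picks other genes with a group difference, so these values are a description with no test. Htr1b, a serotonin receptor, stood at 9.29, 9.36 and 9.52 with NPFF, and at 8.26, 8.46 and 8.68 in control. Like Slc6a12 it was highest on NPFF 3 and lowest on control 1. Car2, a carbonic anhydrase, stood at 11.95, 11.93 and 11.94 with NPFF, and at 11.29, 11.27 and 11.51 in control. The integrin chain gene Itga4 differed by 0.40, the endoplasmic reticulum cation channel gene Tmem38b by 0.97 and the ether lipid monooxygenase gene Agmo by 0.53. Of the 5 other osmolyte genes with a feature of their own, only Slc6a8 spanned enough to enter this search, at 0.67; Slc6a13, Slc6a6, Slc38a2 and Nfat5 spanned 0.22, 0.41, 0.29 and 0.21 and were not searched. Nfat5 had an r of 0.78 with Slc6a12, Slc6a6 0.61, Slc6a13 0.59, Slc38a2 -0.07 and Slc6a8 -0.13. The feature shared by Mrps6 and Slc5a3 had an r of 0.97, and the one shared by Slc6a9 and Ccdc24 0.84.

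**Figure D3:**
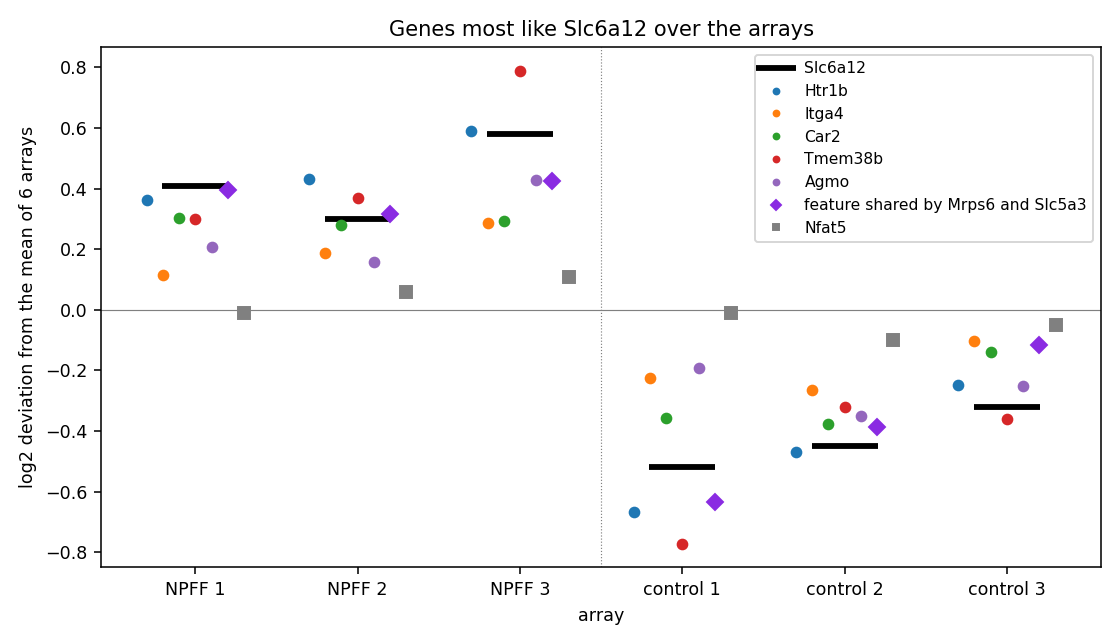
Deviation of each array from the mean of the 6 arrays (log2, vertical axis) for Slc6a12, the 5 genes most like it, Nfat5 and the feature shared by Mrps6 and Slc5a3. Each symbol is 1 array. All but Nfat5 lie above 0 on the 3 NPFF arrays and below 0 on the 3 controls.

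The rest of the pathway was read from 6 gene lists of 92 measured genes in all. Limma called 0 of the 92, and 6 had an unadjusted p under 0.05, beside 2.51% of all genes. By sign 63 were higher and 29 lower with NPFF, against 51.7% higher over all genes, but this depended on control 1. Without that array the medians of all 6 lists lay between -0.06 and -0.01. Groups did not overlap in 9 of the 92 genes, with NPFF higher in 6 and lower in 3, beside the 8.58% of all genes.

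Other members of the SLC6 family, carriers of neurotransmitters and amino acids, were divided. Of the 14 measured, 7 were higher and 7 lower, with a median of 0.00 and a range of -0.17 to 0.14, and 0 were called. Signal was low in this list, with a mean of 6.07 to 6.11 by array, against medians over genes of 6.49 to 6.60. The mean signal of Slc6a12 lay at percentile 97.7 of all genes. Slc6a11, a GABA carrier of the same branch as Slc6a12, stood at 5.98, 5.96 and 5.89 with NPFF, and at 5.73, 6.08 and 6.03 in control, and the groups overlapped. Slc6a4, the serotonin carrier, differed by -0.05 (SE 0.07), and Slc6a20a, an imino acid carrier that also takes betaine, by 0.14 (SE 0.11), with 0.05 without NPFF 2 and 0.25 without NPFF 3. The proline carrier Slc6a7 differed by -0.17 (SE 0.07) and was the only one of the 14 whose groups did not overlap.

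Of 8 other carriers of the same osmolytes and related solutes, 5 were higher and 3 lower, with a median of 0.06. Slc16a12, a creatine carrier, stood at 7.74, 7.68 and 7.59 with NPFF, and at 6.60, 7.35 and 7.32 in control. The groups did not overlap, and control 1 was the lowest array. Its difference of 0.58 (SE 0.20, limma adjusted p = 1.00) was 0.33 without control 1. Slc5a11, a second myo-inositol carrier, differed by -0.08 (SE 0.08), and by -0.03 without NPFF 1 and -0.13 without control 2.

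Of 15 measured genes known as targets of tonicity, 9 were higher and 6 lower, with a median of 0.08, which was -0.05 without control 1. Hspa4l, a chaperone of the osmotic response, stood at 8.10, 8.05 and 8.16 with NPFF, and at 8.06, 8.14 and 7.89 in control, with overlapping groups. Hspa1b, an inducible heat shock protein gene, stood at 6.78, 7.01 and 7.15 with NPFF, and at 5.75, 6.64 and 6.79 in control. Its groups overlapped, and the difference of 0.59 (SE 0.27, adjusted p = 1.00) was 0.27 without control 1. Its near-identical copy Hspa1a, whose probes may share signal, differed by -0.04 (SE 0.09). Signal of Hspa1a was low, at 4.94 to 5.25, where the medians over genes were 6.49 or above. Akr1b8, an aldo-keto reductase related to the aldose reductase Akr1b3, differed by -0.06 (SE 0.15), and the kinase gene Sgk1 by 0.08 (SE 0.13). The calcium-binding protein gene S100a4 differed by 0.64 (SE 0.27) and by 0.34 without control 1, and the chemokine gene Ccl2 by -0.28 (SE 0.13) and by -0.15 without control 1. The groups of these 2 genes were apart by 0.01 or less, so that S100a4 on NPFF 3 and on control 3 had the same rounded value. No other gene of the list was without overlap. The count of 2 was 1 with arrays centred on their medians, against 6.28% of all genes, and 3 after cyclic loess, against 10.3%. It was 4 without NPFF 1, against 13.7% of all genes, 4 without control 1, against 27.3%, and 5 without control 3, against 18.8%.

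**Figure D4:**
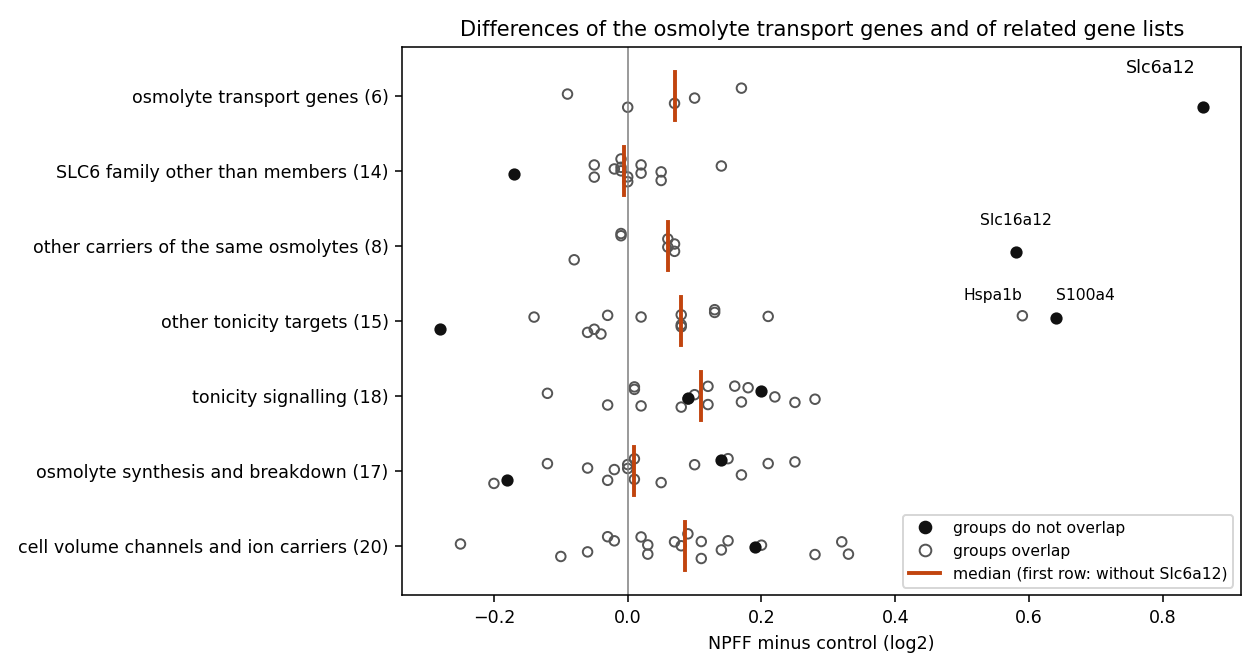
Differences between NPFF and control (log2, horizontal axis) for the 6 osmolyte transport genes with a feature of their own and for the 6 related lists, with the number of measured genes in brackets. Each point is 1 gene, filled where the groups did not overlap, and the vertical bar is the median, in the first row without Slc6a12. Slc6a12 lies at 0.86 and the other 5 between -0.09 and 0.17.

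Of 18 genes that signal to NFAT5 or sense tonicity, 16 were higher and 2 lower, with a median of 0.11, and 0 were called. The mean of the list was 9.09, 9.14 and 9.03 on the NPFF arrays, and 8.75, 9.08 and 9.11 on the controls, with control 1 the lowest array, and without it the median was -0.02. Fyn, a kinase upstream of NFAT5, differed by 0.18 (SE 0.19) and by -0.04 without control 1, and the kinase gene Map3k3 by 0.28 (SE 0.18) and by 0.07 without it. Dhx9, an RNA helicase that binds NFAT5, stood at 10.33, 10.31 and 10.27 with NPFF, and at 10.19, 9.98 and 10.14 in control, a difference of 0.20 (SE 0.07, adjusted p = 1.00) with no overlap. The kinase gene Atm, named after its values were seen, was the other gene without overlap, at 0.09 (SE 0.06). Wnk1, a kinase that controls chloride carriers, differed by -0.12 (SE 0.07), and by -0.07 without control 1.

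Genes that make or break down osmolytes were divided, with 11 of 17 measured higher, 6 lower and a median of 0.01. Chdh, the first enzyme from choline to betaine, differed by 0.10 (SE 0.09), with 0.03 without control 1 and 0.17 without control 2. Csad, an enzyme of taurine synthesis, differed by -0.06 (SE 0.08), with -0.12 without NPFF 1 and 0.00 without NPFF 3. Bhmt2, a methyltransferase related to the enzyme that uses betaine, differed by 0.14 (SE 0.06), and Gpcpd1, which breaks down the osmolyte glycerophosphocholine, by -0.18 (SE 0.08). Groups did not overlap in these last 2. Isyna1 and Sord were not analysed here.

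Of 20 measured channels and ion carriers of cell volume, 15 were higher and 5 lower, with a median of 0.09, which was -0.03 without control 1. Lrrc8a, the essential subunit of the volume-regulated anion channel, differed by 0.03 (SE 0.08), and the sodium, potassium and chloride carrier gene Slc12a2 by 0.02 (SE 0.07). Lrrc8e, another subunit of that channel, stood at 6.28, 6.41 and 6.45 with NPFF, and at 6.16, 6.24 and 6.15 in control, a difference of 0.19 (SE 0.07, limma adjusted p = 1.00), and it was the only one without overlap. The sodium pump subunit gene Atp1b3 differed by 0.28 (SE 0.14), and by 0.14 without control 1.

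Across all genes, Pearson's r was at least 0.996 within the NPFF group, and within the control group it was 0.996 between controls 2 and 3 but 0.965 and 0.973 for control 1 with each of them. All 10 macrophage markers lay above the median over genes on every array, among them Lyz2, Cd68 and Adgre1, against 1 of 6 fibroblast markers (Col1a1), 1 of 5 epithelial markers (Krt8) and 0 of 4 lymphocyte markers. The macrophage markers were divided 5 higher and 5 lower, with a median difference of 0.02.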

How the data were processed

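The values deposited by the authors are taken as log2 intensities, from their range of 4.59 to 14.0, on 6 Affymetrix arrays. By the labels' protocols, total RNA was extracted with TRIZOL and biotin-labelled with the manufacturer's kit; for the authors' scanning, background correction and normalization the answer is: not given in the sources used here. Groups came from the sample titles. The arrays' sorted values departed from their mean by up to 0.17 log2, and all 33794 features were quantile-normalized. The platform annotation paired 23521 features with 1 symbol and 1814 with several, and left 8459 unnamed here. The feature with the highest mean was kept for each of 22180 genes, with no filter on dim features.

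NPFF was compared with control by limma 3.58.1 in R 4.3.3 (lmFit and eBayes on group, 4 residual and 2.49 prior degrees of freedom), two-sided, at a threshold of 0.05 after Benjamini-Hochberg adjustment over the 22180 genes. The fit was tested on simulated data that gave every array the same spread. In these data the median SD of a gene was 0.07 with NPFF and 0.14 in control. Such unequal spread was not simulated. Arrays carry no counting depth, and 3 per group limits the precision. The genes and lists were chosen with earlier results of these data known. Named genes were the 9 osmolyte genes, 15 list members set by name, up to 2 of each list by smallest p, the 5 genes most like Slc6a12 and 3 neighbours on each side. Alternatives were the scaling, the feature of a gene, a filter on dim genes, a replicate block and arrays left out.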

Additional observations from a re-analysis of the deposited data

How the results depend on the processing

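The difference of Slc6a12 stayed between 0.75 and 0.93 in all 13 settings tried, and was 0.87 with the values as deposited and 0.75 with controls 1 and 2 left out together. No gene passed the adjusted threshold in any setting, while the number at an unadjusted p under 0.05 ranged from 235 without NPFF 1 to 2397 without control 1, and was 952 over all features. The median of the other osmolyte genes lay between 0.06 and 0.09 with single arrays left out. The number of them without overlap between groups was 1, Slc6a13, as deposited, against 7.43% of all genes, and after cyclic loess, against 10.3%. It was 0 to 3 with single arrays left out. With controls 1 and 2 left out together it was 5, where 49.6% of all genes did not overlap because a single control remained. The 3 without control 1 were Nfat5 and Slc38a2, higher, and Slc6a8, lower, where 27.3% of all genes did not overlap. Fewer arrays make overlap less likely by construction.

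The median of the SLC6 list lay from -0.03 to 0.04 with single arrays left out and was 0.04 with controls 1 and 2 left out together; there Fyn, Lrrc8a, Sgk1 and Usp18 turned to -0.08, -0.02, -0.03 and -0.03. With single arrays left out, differences that turned sign ranged from -0.28 to 0.06 for Slc6a8, -0.05 to 0.09 for Slc38a2, -0.21 to 0.04 for Akr1b8, -0.04 to 0.32 for Fyn, -0.04 to 0.14 for Iqsec3, -0.04 to 0.06 for Lrrc8a, -0.06 to 0.17 for Sgk1, -0.01 to 0.05 for Slc12a2, -0.11 to 0.06 for Slc6a11 and -0.10 to 0.01 for Slc6a4. The cause was not tested. Over 32 tested gene differences, 20 of 415 values turned sign, in 11 genes, and 0 passed the threshold. Deviations from the group mean correlated at 0.23, 0.451 and -0.331 between same-numbered arrays, and at -0.497 to 0.413 between the others. Such deviations sum to 0 within a group of 3, so these values cannot decide whether the replicate numbers pair the arrays. With the replicate block, Slc6a12 differed by 0.86, 0 genes passed and 396 had an unadjusted p under 0.05.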
